A study of Cucumis melo with 8 samples.

Results

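Mature fruit at 40 days after flowering (40DAF) was compared with young fruit at 10 days after flowering (10DAF) by small RNA sequencing of the flesh (mesocarp) of Hami melon, Cucumis melo variety ‘Flavor No. 4’. The comparison used 4 of the 8 libraries of the series, with 2 libraries at 40DAF and 2 at 10DAF, and the remaining libraries were of 20DAF and 30DAF fruit. No treatment or mutation was involved, and all plants grew in a greenhouse. At each age the first-batch library came from pooled RNA of 3 fruits, and the second-batch library came from a single fruit grown in another season and read on another sequencer. The library numbers 1 and 2 were read as these batches, so each 40DAF library has a 10DAF partner of its own batch. All 116 miRNA names in the table were taken, and names that share a mature sequence were kept as 1 entry, which left 71 distinct sequences of 30 families. No protein-coding marker is in the table, so the tissue itself could not be checked.

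The values are TPM, reads of a miRNA scaled to a common library total, without division by length. Differences between ages were computed on log2(TPM + 5) and are given as 40DAF minus 10DAF. The total implied by the smallest step of the values was 233130 and 134912 reads at 40DAF, against 314786 and 604437 reads at 10DAF, in the first and second batch. Taking 3 reads as the detection floor, the floor lay at 12.9 and 22.2 TPM at 40DAF and at 9.53 and 4.96 TPM at 10DAF. The second 40DAF library was therefore the least sensitive of the 4. Of the 71 sequences, 58 exceeded 3 reads in at least 1 of the 4 libraries, 13 did not, and 2 of those 13 had no read in any of them.

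Plant miRNAs are cut from hairpin transcripts, mostly as short RNAs starting with U, and loaded into Argonaute proteins, which they guide to matching mRNAs. Pairing of the 5′ part of the miRNA, the seed, with the target is needed for regulation, and plant targets usually pair along nearly the whole length. Most conserved families act on transcription factors. In fleshy fruit, miR156 targets SPL factors, miR172 targets AP2-type factors and miR164 targets NAC factors, and members of these 3 target families are known regulators of ripening.

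The sequences on which the results turn are printed 5′ to 3′ with the seed, bases 2 to 8, in capitals. They are shown because several differ by a single base and yet had different values at the 2 ages.
miR164c/d: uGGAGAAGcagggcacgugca
miR164a: uGGAGAAGcagggcacgugcu
miR156g/h: uGACAGAAgagagggagcac
miR156a/c/d/i: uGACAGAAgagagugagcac
miR156e: uUGACAGAagauagagggcac
miR156b: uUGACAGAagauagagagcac
miR156j: gUUGACAGaagagagugagcac
miR172b/c: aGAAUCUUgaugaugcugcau
miR172e: aGAAUCUUgaugaugcugcag
miR159b: aUUGGAUUgaagggagcuccu
miR319c/d: uUGGACUGaagggagcuccu
miR396b: uUCCACAGcuuucuugaacug
miR396a/c/d: uUCCACAGcuuucuugaacuu
Counted from the 5′ end, miR164a and miR164c/d differ by U21A, miR172b/c and miR172e by U21G, miR396a/c/d and miR396b by U21G, miR156a/c/d/i and miR156g/h by U14G, and miR156b and miR156e by A17G. Among all 71 sequences, 25 pairs of equal length differ at a single base. The authors matched reads with up to 1 mismatch, so reads of such a pair may have been counted for either or both members, and how far this happened was not tested.

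At both ages the libraries were dominated by miR396b and miR159a. The sequence miR396b, which targets growth-regulating factors, held 657878 TPM and 255018 TPM at 40DAF, against 300055 TPM and 337218 TPM at 10DAF. Its partner in abundance, miR159a, a regulator of GAMYB-type MYB factors, held 186874 and 194364 TPM at 40DAF, against 150248 and 71045 TPM at 10DAF. The 40DAF values of miR396b lay on both sides of the 10DAF values, and its fitted difference was 0.36 ± 0.67 (SE). The values of miR159a did not overlap between the ages, yet its difference of 0.88 ± 0.54 (SE) did not pass the test (unadjusted p = 0.148, limma). All families other than miR159, miR319 and miR396 together made up 2.03% and 5.25% of the summed TPM at 40DAF, against 1.74% and 1.40% at 10DAF.

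Across all sequences, 4 rose and 1 fell at 40DAF relative to 10DAF at a Benjamini-Hochberg adjusted p under 0.05 (limma, all 8 libraries in 1 model of the 4 stages), which is 5.63% and 1.41% of the 71 sequences and 7.04% together. The 4 that rose were miR164c/d, miR156g/h, miR156e and miR156b, and the 1 that fell was miR159b. At the looser threshold of an unadjusted p under 0.05 with a fold change over 1.5, 10 sequences were higher and 6 were lower, or 14.1% and 8.45% of those tested. All 16 had the same direction in both batches, and their values did not overlap between the ages, as was the case for 23.9% of the 71 sequences that were higher and 19.7% that were lower. The split between higher and lower depended on the scaling, since it was 5 higher and 17 lower after scaling on all but the 3 dominant families (miR159, miR319 and miR396), called scaling on other families, and 2 higher and 15 lower after scaling on each library's clean reads. The median difference of all sequences was -0.06, and these scalings moved it by -0.67 and -0.45. Each of the 16 sequences kept its mean direction, also relative to that median, but only 11 and 8 of them still passed the unadjusted threshold. The difference of miR172b/c, for example, went from 1.42 to 0.02 and 0.28. No sequence passed the adjusted threshold once any single 20DAF, 30DAF or 40DAF library was left out, when 12 to 16 still passed the unadjusted one, nor with the 4 libraries of the 2 ages alone, when 9 did. Because whole tissue was sequenced, a change in the share of cells that make a miRNA and a change in its amount per cell cannot be told apart.

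**Figure D1:**
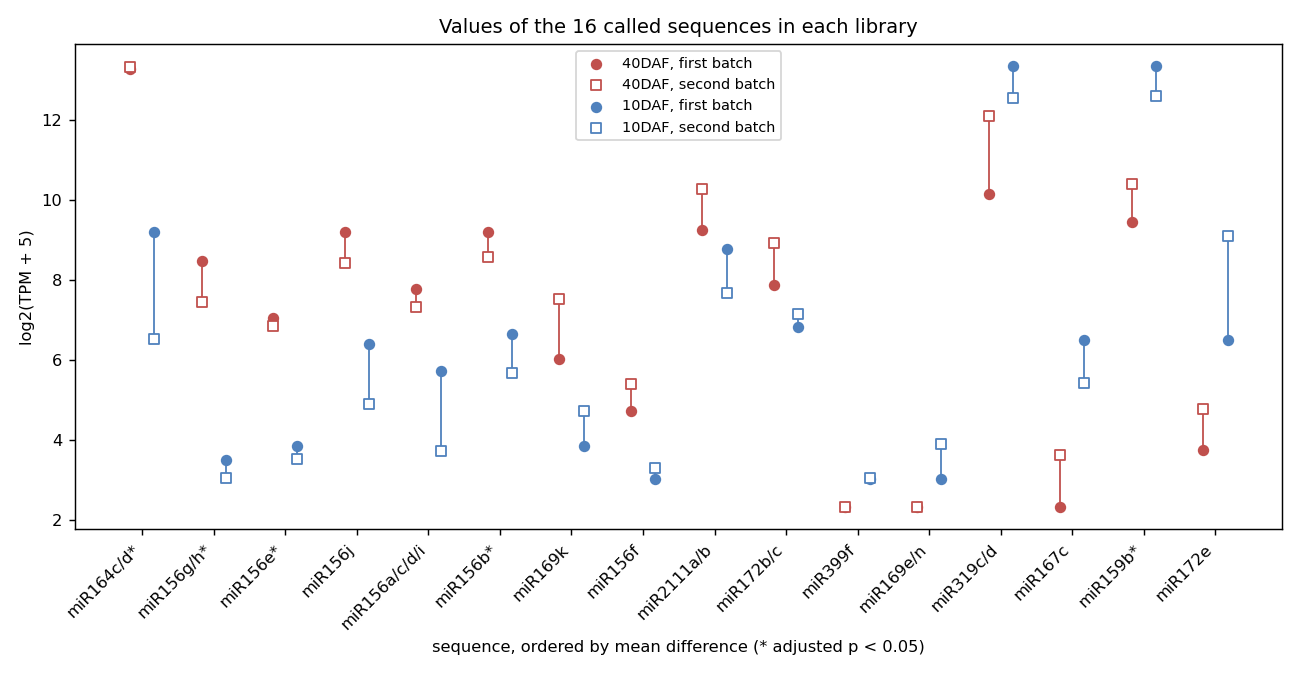
Values of the 16 sequences past the unadjusted threshold, as log2(TPM + 5) on the vertical axis, with 40DAF in red on the left and 10DAF in blue on the right of each pair, filled circles for the first batch and open squares for the second, and a line joining the 2 libraries of an age. An asterisk marks an adjusted p under 0.05. The 2 ages do not overlap in any of the 16, and miR164c/d has the widest gap, with 40DAF libraries at 9840 and 10310.4 TPM.

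The largest difference was that of miR164c/d, the product of the genes MIR164c and MIR164d. It held 9840 and 10310.4 TPM at 40DAF, against 581 and 87.7 TPM at 10DAF. The 40DAF libraries were close to each other, and the 10DAF libraries were further apart. The ratio of 40DAF to 10DAF was 16.9 in the first batch, with a 95% counting interval (Clopper-Pearson) of 14.6 to 19.8, and 118 in the second, with an interval of 89.4 to 158. These intervals cover counting error only. The fitted log2 difference was 5.43 ± 0.83 (SE), with an adjusted p of 0.0294 (limma), and 5.49 relative to the median of all sequences. It also passed under the 3 other scalings, with log2 differences of 4.02 to 5.14. Without the first 10DAF library the difference was 6.76, and without the second it was 4.10.

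The other members of the family behaved differently. The sequence miR164a, which shares the seed and differs only at the last base, held 1240 and 1890 TPM at 40DAF, against 1090 and 771 TPM at 10DAF, a difference of 0.74 ± 0.54 (SE) that did not pass the test. The sequence miR164b held 25.7 and 44.5 TPM at 40DAF, against 44.5 and 18.2 TPM at 10DAF, on 6 to 14 reads. Its within-batch differences were -0.69 and 1.09, on both sides of 0, but scaled on other families they were -1.37 and -0.67 and scaled on clean reads -0.80 and -0.75. The make-up of the family thus differed between the ages. Of the miR164 TPM, miR164c/d held 88.6% and 84.2% at 40DAF, against 33.9% and 10.0% at 10DAF, while miR164a held 11.2% and 15.4% at 40DAF, against 63.5% and 87.9% at 10DAF. Among the families other than miR159, miR319 and miR396, miR164c/d made up 55.5% and 39.3% of the TPM at 40DAF, against 5.70% and 1.41% at 10DAF.

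All 6 sequences of miR156, the family that targets SPL factors and keeps plants in the juvenile phase, were higher at 40DAF in both batches. All 6 passed the unadjusted threshold, where 14.1% of all sequences were higher, and 3 of them passed the adjusted one. The 6 may share reads, so they are not independent results. Besides the pairs of equal length, miR156f lies whole within miR156b, and within miR156e with the substitution A16G. Likewise miR156g/h lies within miR156j with the substitution G14U. How far reads were shared was not tested. The median difference of the 6 was 2.999, against -0.06 over all 71. The member miR156g/h held 352 and 170 TPM at 40DAF, against 6.35 and 3.31 TPM at 10DAF, which at 10DAF is 2 reads in each library. Its log2 difference was 4.69 ± 0.83 (SE, adjusted p = 0.0341, limma), and the ratio was 55.4 in the first and 51.5 in the second batch, with wide counting intervals of 14.8 to 465 and 12.7 to 451. The adjusted call was lost when scaled on clean reads (3.80, adjusted p = 0.111, limma).

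The pair miR156e and miR156b differs at base 17 only, and both members rose. The sequence miR156e held 129 and 111 TPM at 40DAF, against 9.53 and 6.62 TPM at 10DAF, a difference of 3.26 ± 0.68 (SE, adjusted p = 0.0425, limma). The sequence miR156b was more abundant, with 583 and 378 TPM at 40DAF, against 95.3 and 46.3 TPM at 10DAF, and differed by 2.73 ± 0.60 (SE, adjusted p = 0.0425, limma). Both calls were lost when libraries were scaled on the other families or on clean reads, where the differences were 2.10 and 2.31 for miR156e and 1.35 and 1.61 for miR156b. With voom, the weighting limma uses for counts, on the reads recovered from the TPM, the adjusted p was 0.0530 for miR156e and 0.0549 for miR156b (limma). The call of miR156e was also lost with median-ratio scaling (adjusted p = 0.0564, limma) and with a pseudocount of 1 (adjusted p = 0.0602, limma).

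The remaining 3 miR156 sequences passed only the unadjusted threshold. The 22 nt miR156j held 583 and 341 TPM at 40DAF, against 79.4 and 24.8 TPM at 10DAF, a difference of 3.17 ± 0.81 (SE, adjusted p = 0.0761). With the batch as a block its adjusted p was 0.0250 (limma). The sequence miR156a/c/d/i lies whole within miR156j, starting at base 3, so their reads may overlap. It held 214 and 156 TPM at 40DAF, against 47.7 and 8.27 TPM at 10DAF. The least abundant member, miR156f, held 21.5 and 37.1 TPM at 40DAF, against 3.18 and 4.96 TPM at 10DAF, on 5 reads in each 40DAF library. Within the family miR156g/h took 18.7% and 14.3% of the TPM at 40DAF, against 2.63% and 3.51% at 10DAF, and the share of miR156b was 31.0% and 31.7% at 40DAF, against 39.5% and 49.1% at 10DAF.

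The miR172 family, which acts on AP2-type factors, did not move as a whole in the deposited TPM. However, 2 of its members passed the unadjusted threshold in opposite directions. The sequence miR172b/c held 232 and 482 TPM at 40DAF, against 108 and 137 TPM at 10DAF, a difference of 1.42 ± 0.56 (SE, adjusted p = 0.191), and in the second batch it was lower at 40DAF when scaled on other families (-0.26) or clean reads (-0.38). The sequence miR172e, which differs at base 21 only, held 8.58 and 22.2 TPM at 40DAF, against 85.8 and 543 TPM at 10DAF, a difference of -3.54 ± 1.42 (SE, adjusted p = 0.195). At 40DAF miR172e was represented by 2 and 3 reads, against 27 and 328 reads at 10DAF. Neither passed with the batch as a block, where the unadjusted p was 0.0510 for miR172b/c and 0.0515 for miR172e (limma).

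In the deposited TPM the summed family differed little, with 322 and 600 TPM at 40DAF, against 302 and 700 TPM at 10DAF. Scaling on other families multiplies the second-batch 40DAF and 10DAF values by 0.49 and 2.07, and scaling on clean reads by 0.39 and 1.81. Under both, the second-batch family sum was lower at 40DAF. The share of miR172e in the family was 2.67% and 3.70% at 40DAF, against 28.4% and 77.5% at 10DAF. The share of miR172b/c was 72.0% and 80.2% at 40DAF, against 35.8% and 19.6% at 10DAF. The sequence miR172d, which differs from miR172b/c by A1G, held 42.9 and 66.7 TPM at 40DAF, against 41.3 and 1.65 TPM at 10DAF, where the last value is 1 read. The sequence miR172a, which differs from miR172e by A1G, held 38.6 and 29.7 TPM at 40DAF, against 66.7 and 18.2 TPM at 10DAF, lower in the first batch and higher in the second.

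**Figure D2:**
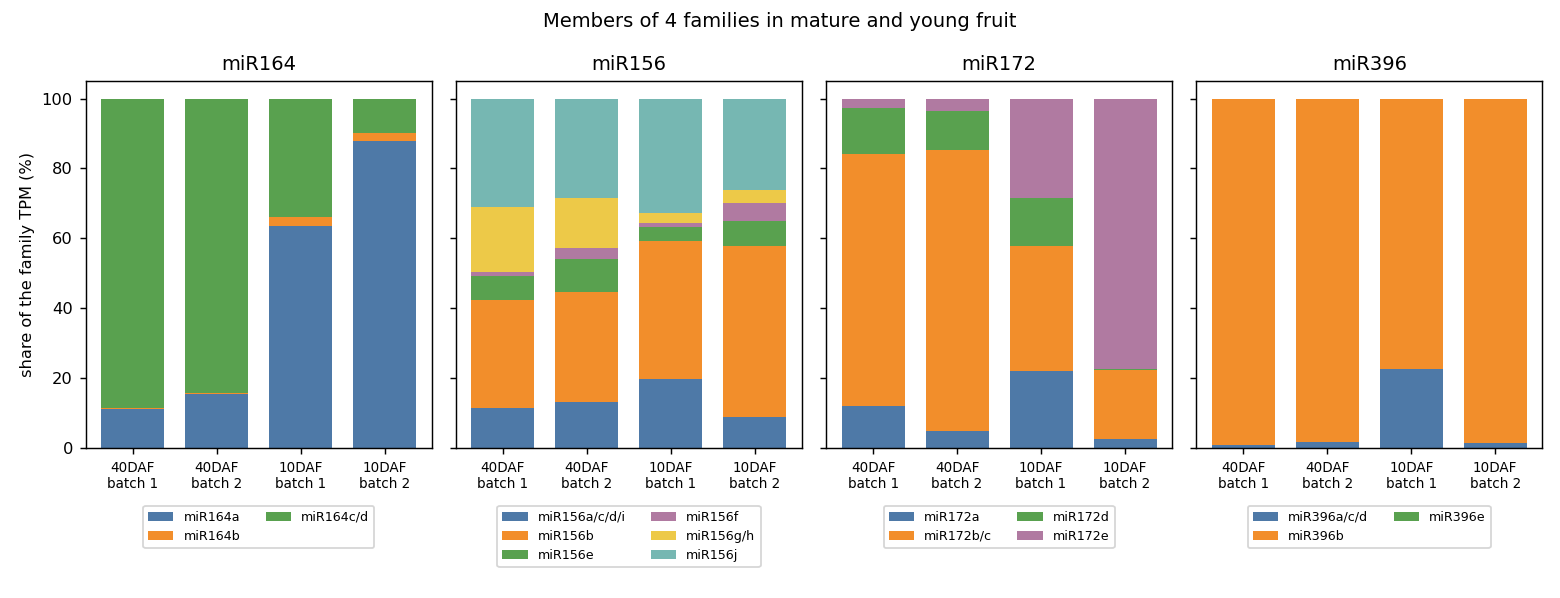
Share of each member in the TPM of its family (vertical axis, %) for miR164, miR156, miR172 and miR396, with the 40DAF libraries of both batches left of the 10DAF libraries. In miR164 the member miR164c/d fills 88.6% and 84.2% of the bar at 40DAF, against 33.9% and 10.0% at 10DAF, and miR172e is at 3.70% or less at 40DAF, against 28.4% and 77.5% at 10DAF.

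Of the families that act on MYB and TCP factors, miR159b was the sequence that fell. It held 695 and 1356 TPM at 40DAF, against 10337 and 6173 TPM at 10DAF. Its log2 difference was -3.03 ± 0.59 (SE, adjusted p = 0.0380, limma), a fold change of 14.9 lower in the first and 4.55 lower in the second batch. It passed under the 3 other scalings too, with log2 differences of -3.34 to -4.46. The abundant miR159a was higher at 40DAF in both batches, by 0.31 and 1.45, but scaled on other families its differences were -0.48 and -0.62, and scaled on clean reads they were 0.19 and -0.75. In sequence, miR319c/d lies within miR159b from base 2 with the single substitution C6U.

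The TCP-targeting miR319 sequences were lower at 40DAF in the first batch under all 4 scalings, while the second batch depended on it. The sequence miR319c/d held 1132 and 4388 TPM at 40DAF, against 10407 and 6029 TPM at 10DAF, a difference of -1.83 ± 0.70 (SE, unadjusted p = 0.0365, adjusted p = 0.185). Its difference was -3.19 in the first and -0.46 in the second batch, and under the 3 other scalings the second-batch difference was -1.57 to -2.66. Scaled on other families or on clean reads it passed the adjusted threshold as well, with differences of -3.26 and -2.99. The sequence miR319a/b held 2020 and 13816 TPM at 40DAF, against 18006 and 12074 TPM at 10DAF, so its first 40DAF value lay below both 10DAF values and its second between them. The share of miR319c/d in the family was 35.9% and 24.1% at 40DAF, against 36.6% and 33.3% at 10DAF, lower at 40DAF mainly in the second batch. The second-batch difference of miR319a/b was 0.19, but it was -1.88 scaled on other families, -0.91 with median-ratio scaling and -2.01 scaled on clean reads. The MYB-targeting miR858 held 4.29 and 156 TPM at 40DAF, against 9.53 and 21.5 TPM at 10DAF, on 1 and 21 reads, against 3 and 13.

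In the miR396 family, which targets growth-regulating factors, the sequence miR396a/c/d held 4911 and 4255 TPM at 40DAF, against 87107 and 4439 TPM at 10DAF. The difference was -4.15 in the first and -0.06 in the second batch, with a fitted value of -2.10 ± 1.75 (SE), and the second-batch difference was -2.13 scaled on other families and -2.26 scaled on clean reads. The sequence miR396e, which differs from miR396b at base 7 within the seed, held 352 and 311 TPM at 40DAF, against 562 and 490 TPM at 10DAF. Its differences were -0.67 and -0.65 in the 2 batches, close to each other in the deposited TPM. Scaled on other families or on clean reads, miR396e fell further in the second batch than in the first. The fitted difference in the deposited TPM, -0.66 ± 0.44 (SE), did not pass (unadjusted p = 0.179, limma).

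None of the 8 sequences that act on auxin signalling passed the adjusted threshold, which only 7.04% of all 71 sequences passed, so this count says little about the group. The ARF-targeting miR167c had 0 reads and 1 read at 40DAF, against 27 and 23 reads at 10DAF, and was lower at the unadjusted threshold, with a difference of -2.99 ± 1.14 (SE, unadjusted p = 0.0363). Measured against the floor of 3 reads it was 6.67-fold lower at 40DAF in the first batch, where the upper counting limit of the ratio was 0.198. Its neighbour in sequence miR167d/f, which differs from it by U21G, held 163 and 126 TPM at 40DAF, against 222 and 129 TPM at 10DAF. As a share of the family, miR167d/f made up 90.5% and 85.0% at 40DAF, against 55.1% and 72.9% at 10DAF, and miR167c was at 0% and 4.999%, against 21.3% and 21.5%. The sequence miR160a/b/c, a regulator of other ARF genes, held 4.29 and 14.8 TPM at 40DAF, against 85.8 and 23.2 TPM at 10DAF. Its 40DAF values rest on 1 and 2 reads, and the second-batch ratio of 0.640 had a counting interval of 0.0706 to 2.79. The tasiRNA trigger miR390a/b/c/d held 4.29 and 14.8 TPM at 40DAF, against 28.6 and 56.3 TPM at 10DAF, also on 1 and 2 reads at 40DAF. Its unadjusted p was 0.0928 without and 0.0395 with the batch as a block (limma). The receptor regulator miR393a/b/c held 377 and 534 TPM at 40DAF, against 889 and 369 TPM at 10DAF, lower in the first batch and higher in the second.

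Of the 10 miR169 sequences, which target NF-YA subunits, 1 was higher and 1 lower at the unadjusted threshold. These counts are near the shares over all 71 sequences, 14.1% higher and 8.45% lower. The sequence miR169k had 14 and 24 reads at 40DAF, against 3 and 13 reads at 10DAF, or 60.1 and 178 TPM against 9.53 and 21.5 TPM. Its difference was 2.47 ± 0.86 (SE, unadjusted p = 0.0256, adjusted p = 0.165). The sequence miR169e/n had no reads at 40DAF, against 1 and 6 reads at 10DAF. At the depth of the 40DAF libraries 3 reads exceed its 10DAF values, so a loss was not detectable at this depth. Its difference of -1.14, on these few reads, passed the unadjusted threshold in the limma fit, with a p of 0.0127 before and an adjusted p of 0.128 after adjustment. The sequence miR169f/h also had no reads at 40DAF, against 1 and 36 reads at 10DAF. Measured against the floor of 3 reads it was 2.68-fold lower in the second batch, where the upper counting limit of the ratio was 0.483. The most abundant member, miR169t, held 781 and 282 TPM at 40DAF, against 235 and 108 TPM at 10DAF, and did not pass (unadjusted p = 0.104).

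In a published melon annotation from RefSeq (assembly USDA_Cmelo_AY_1.0), 92 of the 116 names have a gene, and 5 pairs of miRNA genes are direct neighbours there, all of miR169. One of these pairs is MIR169r with MIR169k, and the other 4 link MIR169d, MIR169m, MIR169j, MIR169s and MIR169q in a row. Whether the neighbours MIR169k and MIR169r share a pattern cannot be told, since miR169r had no reads at 40DAF, against 1 read and no read at 10DAF. In sequence, miR169r lies whole within miR169t, starting at base 2, so its reads may overlap with those of miR169t.

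Among the miRNAs of nutrient supply, miR2111a/b was higher at the unadjusted threshold. It targets kelch-repeat F-box transcripts and responds to phosphate in Arabidopsis. It held 609 and 1223 TPM at 40DAF, against 435 and 199 TPM at 10DAF, a difference of 1.54 ± 0.59 (SE, adjusted p = 0.185), which in the first batch was -0.31 when scaled on other families. The miR399 family targets the phosphate regulator PHO2, but the seed of miR399g differs from the seed that its other members share. Whether miR399g has this target was not tested. Of the 6 miR399 sequences, miR399g had the most reads, 16 and 10 at 40DAF, against 3 and 14 at 10DAF. It held 68.6 and 74.1 TPM at 40DAF, against 9.53 and 23.2 TPM at 10DAF, and did not pass (unadjusted p = 0.0694), with a second-batch difference of -0.35 when scaled on other families. The sequence miR399f had no reads at 40DAF, against 1 and 2 reads at 10DAF, so all 4 libraries were at or under the floor. It passed only the unadjusted threshold (adjusted p = 0.165, limma), and not with the batch as a block.

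The copper-responsive miR398 family targets superoxide dismutases, which the paper predicted for miR398b, while for miR398a it predicted blue copper binding proteins. The sequence miR398a had 1 and 2 reads at 40DAF, against 68 and 55 reads at 10DAF. In TPM it held 4.29 and 14.8 at 40DAF, against 216 and 91.0 at 10DAF. Its difference of -3.42 ± 1.56 (SE) had an unadjusted p of 0.0665 without and 0.0330 with the batch as a block (limma). The ratio intervals stayed below 1 in both batches, at 0.000496 to 0.114 in the first and 0.0192 to 0.617 in the second. Its family member miR398b was also lower in both batches, with 4.29 and 0 TPM at 40DAF, against 12.7 and 6.62 TPM at 10DAF, but on 4 reads or fewer in each library. The laccase regulator miR397 held 12.9 and 14.8 TPM at 40DAF, against 47.7 and 0 TPM at 10DAF. The copper-linked miR408 held 112 and 14.8 TPM at 40DAF, against 85.8 and 13.2 TPM at 10DAF, slightly higher in each batch, with 2 and 8 reads behind the second-batch values.

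The 2 sulfate-linked miR395 sequences, regulators of ATP sulfurylases, went opposite ways in the 2 batches in the deposited TPM. The sequence miR395a/d/e/f held 172 and 89.0 TPM at 40DAF, against 403 and 28.1 TPM at 10DAF. Its difference was -1.21 in the first and 1.50 in the second batch, where it was -0.38 scaled on other families and -0.48 scaled on clean reads. Of the miRNAs that target the silencing machinery itself, miR168, a regulator of AGO1, held 21.5 and 14.8 TPM at 40DAF, against 575 and 26.5 TPM at 10DAF. Its second-batch values rest on 2 and 16 reads, and the fitted difference was -2.56 ± 1.78 (SE). The DCL1 regulator miR162 held 811 and 1757 TPM at 40DAF, against 1102 and 1398 TPM at 10DAF. Its difference of -0.06 ± 0.51 (SE) equalled the median of all sequences.

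Among less studied sequences, miR530b held 42.9 and 44.5 TPM at 40DAF, against 22.2 and 0 TPM at 10DAF. These values rest on 10 and 6 reads, against 7 and 0. Measured against the floor of 3 reads it was 8.96-fold higher in the second batch, where the lower counting limit of the ratio was 5.28. Its unadjusted p was 0.0760 without and 0.0291 with the batch as a block (limma). The HD-ZIP III regulator miR166a/b/c/d/f/h held 72.9 and 170 TPM at 40DAF, against 124 and 31.4 TPM at 10DAF, lower in the first batch and higher in the second. The second-batch difference was 2.27, but 0.34 scaled on other families and 0.22 scaled on clean reads. It was highest at 30DAF, at 586 and 542 TPM, so the ends of the series do not describe its course.

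The 24 nt miR7129 differed between the batches. It held 678 and 5581 TPM at 40DAF, against 2109 and 1295 TPM at 10DAF. Its ratio was 0.321 in the first batch, with an interval of 0.268 to 0.383, and 4.31 in the second, with an interval of 3.89 to 4.77. On the log2 scale the second-batch difference was 2.10, but 0.03 scaled on other families and -0.09 scaled on clean reads. The sequences miR845 and miR1863 had no read in the first batch at either age. In the second batch miR845 had 101 reads at 40DAF, against 19 at 10DAF, a ratio of 23.8 (14.5 to 41.2), and miR1863 had 50 reads, against 3, a ratio of 74.7 (24.1 to 374). These 2 sequences are printed because they share a run of 12 bases, shown in capitals.
miR845: ucGCUCUGAUACCAauaugaug
miR1863: aGCUCUGAUACCAuguuagauuug
In Arabidopsis, miR845 matches the primer-binding site of retrotransposons and gives rise to secondary small RNAs in pollen. At 40DAF and 10DAF the pair was seen in a single batch only, so the difference between the ages has no replicate.

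**Figure D3:**
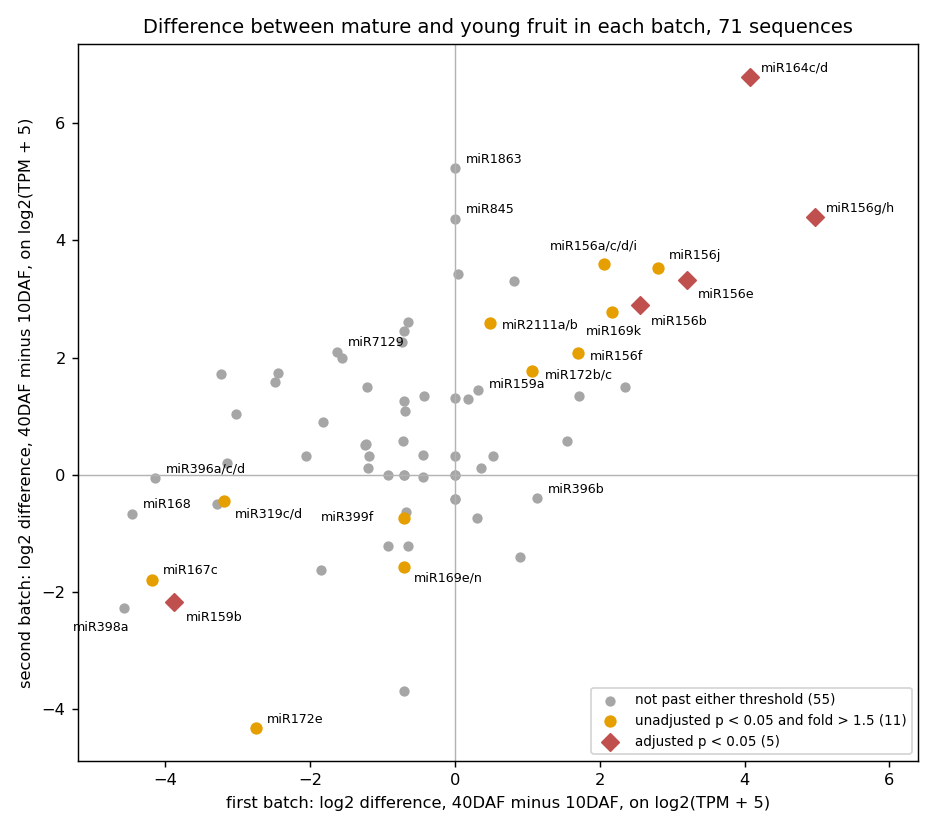
Difference between 40DAF and 10DAF on log2(TPM + 5) for each of the 71 sequences, in the first batch on the horizontal axis and in the second on the vertical axis. Red diamonds pass an adjusted p under 0.05, orange circles the unadjusted threshold only, and grey circles neither. Points in the upper left, such as miR7129 at -1.63 and 2.10, were lower at 40DAF in the first batch and higher in the second, though scaled on other families miR7129 was at -2.42 and 0.03.

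Within each batch, 12 sequences were over 1.5-fold higher at 40DAF in both (16.9% of 71), 12 were over 1.5-fold lower in both (16.9%), and 14 were over 1.5-fold apart in opposite directions (19.7%). The median difference was -0.67 in the first and 0.53 in the second batch. Accordingly 22 sequences were higher and 41 lower at 40DAF in the first batch, and 45 were higher and 21 lower in the second. Scaled on the other families these medians were -0.85 and -0.67, and 26 sequences were over 1.5-fold lower in both batches. Across the 71 sequences the differences of the batches had a Pearson r of 0.57 and a Spearman rho of 0.48, and over the 52 sequences with a mean of at least 10 TPM these were 0.66 and 0.61. The sequences are not independent replicates, and all those of a batch share the same pair of libraries. Counting error alone was exceeded in the same direction in both batches by 17 sequences, 12 higher and 5 lower, and in opposite directions by 7.

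Summed by family, miR164 and miR156 rose at 40DAF relative to 10DAF at an adjusted p under 0.05, which is 6.67% of the 30 families. The miR164 family held 11105 and 12245 TPM at 40DAF, against 1715 and 877 TPM at 10DAF, a difference of 3.24 ± 0.42 (SE, adjusted p = 0.000588, limma). The miR156 family held 1883 and 1193 TPM at 40DAF, against 241 and 94.3 TPM at 10DAF, a difference of 3.27 ± 0.72 (SE, adjusted p = 0.0166, limma). Scaled on clean reads neither passed, with differences of 2.08 for miR164 and 2.12 for miR156, and scaled on other families miR156 did not, with 1.86. The miR156 call was also lost without the first 40DAF library or the second 10DAF library, where the differences were 2.94 and 2.61.

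At the unadjusted threshold 13.3% of the families passed, which adds miR2111, the single sequence described above, and miR319, which was lower. The miR319 family held 3153 and 18205 TPM at 40DAF, against 28413 and 18103 TPM at 10DAF, a difference of -1.58 ± 0.68 (SE, unadjusted p = 0.0431). With the batch as a block miR398, lower (unadjusted p = 0.0194, limma fit), and miR530, higher (unadjusted p = 0.0311, limma fit), passed as well. In the second batch the miR319 family differed by only 0.01, and without the first 40DAF library the fitted difference was -0.32. Without the second 40DAF library it was -2.84, and either omission leaves 1 library at 40DAF. The miR319 family passed the adjusted threshold when scaled on other families, at -3.02 (adjusted p = 0.0133, limma). Of the 30 families, 8 were higher and 6 lower at 40DAF in both batches, 13 had opposite signs, and 3 did not differ in 1 batch. Families of a single sequence, 15 in number, repeat the values given for that sequence.

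**Figure D4:**
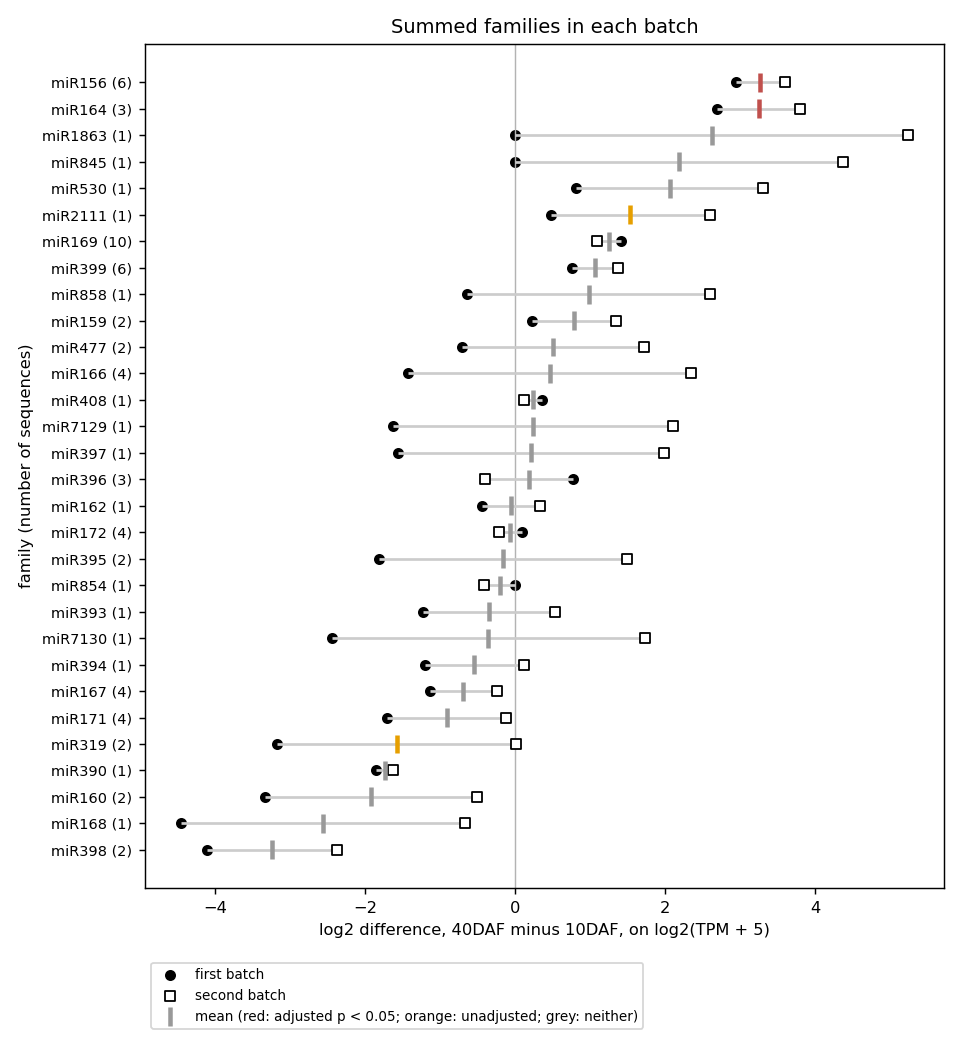
Difference between 40DAF and 10DAF of the summed TPM of each of the 30 families on log2(TPM + 5) (horizontal axis), with the first batch as a filled circle, the second as an open square and their mean as a bar, red for an adjusted p under 0.05, orange for the unadjusted threshold only and grey for neither. The number of sequences is given beside the family. The miR156 and miR164 families lie at 2.69 or more in both batches, while families such as miR7129, miR166, miR395, miR397 and miR7130 lie on opposite sides of 0 in the deposited TPM.

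The shares of length and first base were set largely by miR396b and miR159a, both of 21 nt and starting with U. Sequences of 21 nt made up 99.3% and 94.7% of the TPM at 40DAF, against 94.5% and 95.5% at 10DAF. Those starting with U made up 99.7% and 98.3%, against 97.7% and 98.1%. The smaller classes varied more. Sequences of 20 nt held 0.461% and 3.84% at 40DAF, against 5.05% and 4.19% at 10DAF. Those of 24 nt held 0.0778% and 1.20%, against 0.363% and 0.295%. Those starting with A held 0.208% and 1.59%, against 2.18% and 1.87%. The 40DAF libraries held 51 and 57 detected sequences, against 62 in each 10DAF library, and 37 sequences each over 3 reads, against 46 each. The 40DAF libraries also had fewer reads, and the part of depth in this count was not tested. Among the families other than miR159, miR319 and miR396, the effective number of sequences (the exponential of the Shannon entropy) was 7.10 and 8.79 at 40DAF, against 17.9 and 12.7 at 10DAF.

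The intermediate stages place the changes in time in the deposited TPM only. Scaling on other families multiplies the second-batch 20DAF and 30DAF values by 1.86 and 0.69, and scaling on clean reads by 2.45 and 0.44. Rises between these libraries are smaller under both scalings. Scaled on clean reads, almost none of the second-batch rise of miR164c/d from 20 to 30DAF remained. For miR164c/d the TPM at 10, 20, 30 and 40DAF were 581, 1133, 7475 and 9840 in the first batch. In its second-batch libraries they were 87.7, 1046, 5843 and 10310.4. The step between 20 and 30DAF was 2.72 and 2.48 on the log2 scale and the last step was 0.40 and 0.82. In the second batch the largest step, 3.504, lay between 10 and 20DAF. Most of the rise of miR156g/h came later, since its last step, from 30 to 40DAF, was 3.60 in both batches. The TPM of miR156g/h were 6.35, 11.1, 24.3 and 352 in the first batch. They were 3.31, 4.06, 9.52 and 170 in the second, on 2, 4, 1 and 23 reads. The 30DAF library of that batch had its floor of 3 reads at 28.6 TPM, so the timing there rests on few reads.

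The other sequences past the adjusted threshold also differed in timing. The last step was the largest for miR156e as well, at 2.45 and 2.27, though on 2 reads at 30DAF in the second batch. For miR156b it was largest in the first batch, at 1.52, but in the second batch the first step was, at 1.82. The fall of miR159b was early, with steps of -1.45 and -1.74 from 10 to 20DAF and of -2.32 and -0.82 from 20 to 30DAF, and last steps of -0.11 and 0.39. The sequence miR172e passed the unadjusted threshold only. Its drop lay between 20 and 30DAF in the first batch, at -3.83, and between 10 and 20DAF in the second, at -4.83. In the deposited TPM, miR164c/d, miR156g/h, miR156j and miR156a/c/d/i were higher at each stage than at the one before in both batches. No other of the 16 sequences past the unadjusted threshold was. Scaled on clean reads, miR156g/h, miR156j and miR156a/c/d/i were lower at 30DAF than at 20DAF in the second batch. Scaled on other families, miR156g/h was lower there too.

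**Figure D5:**
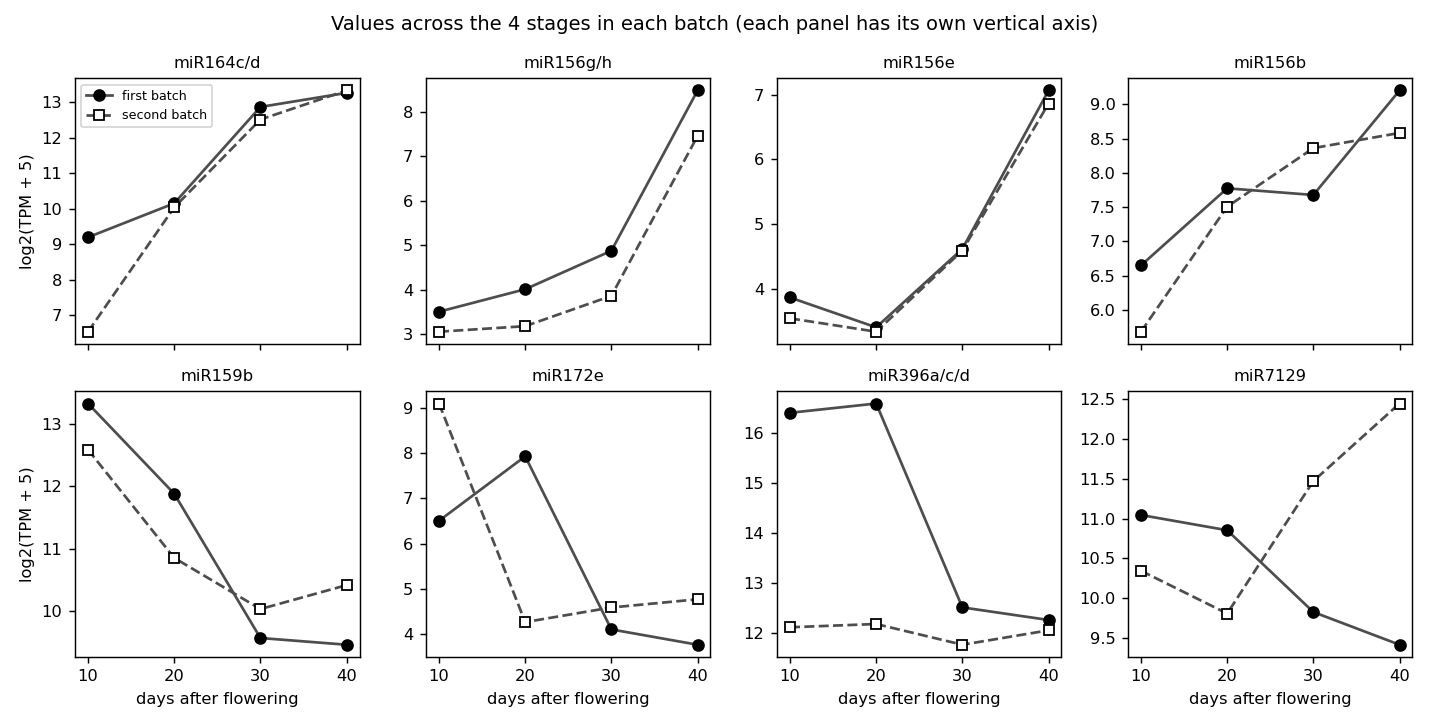
Values at 10, 20, 30 and 40 days after flowering (horizontal axis) as log2(TPM + 5) for 8 sequences, with the first batch as filled circles on a solid line and the second as open squares on a dashed line, 1 library per point. Each panel has its own vertical axis. The lines of miR156g/h climb steeply only after 30DAF, those of miR159b drop before 30DAF, and those of miR7129 cross, with 678 TPM in the first batch and 5581 TPM in the second at 40DAF. All values are deposited TPM, and the second-batch value of miR156g/h at 30DAF is 1 read.

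By the functional groups, the phase change and ripening group (miR156 and miR172) had 7 of its 10 sequences higher and 1 lower at the unadjusted threshold, with 2 not passing, against 10 higher and 6 lower of all 71. Its median difference was 2.31, and that of all 71 was -0.06. In the 61 sequences outside this group, 3 were higher, namely miR164c/d, miR169k and miR2111a/b, and 5 were lower. The MYB and TCP group had 2 of 5 sequences lower and a median of -1.48. The auxin group had 1 of 8 lower and a median of -0.41. No sequence passed either threshold among the 4 of the HD-ZIP III group, the 4 of the GRAS group, the 4 of the copper group, the 2 of the sulfate group or the 3 of the growth group. These groups were put together with results of these data known and are not independent evidence of a direction.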

How the data were processed

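The authors trimmed adapters, kept reads of small RNA length, took out rRNA and tRNA reads, and aligned what was left to miRBase with Bowtie at up to 1 mismatch. The deposited values are TPM, reads scaled to a common library total, not divided by length, and names sharing a sequence carry the same value. Which total the authors used is not given in the sources used here. An empty field in 1 line was dropped. The step of a read was found from low values of the 8 libraries, all of which (44 to 52 per library, tolerance 0.1 read) were whole.

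On log2(TPM + 5), a limma model (version 3.58.1, R 4.3.3) of the 4 stages was fitted over all 8 libraries, with the mean-variance trend on. The authors used edgeR. With 2 libraries per age an exact permutation test cannot go below p = 0.333, and p-values here rest on the spread shared across stages and sequences. Library numbers mark the sampling batch, and batch differences correlated over all 6 pairs of stages (r = 0.352 to 0.664, mean 0.498), so a fit with the batch as a block was run beside the main one. Sequences named are those past a threshold, the 10 largest differences per direction that had the same sign in both batches and over 3 reads, the 5 most abundant, and those over 1.5-fold in opposite directions in the batches. Other sequences are the highest of their group or neighbours in sequence. Members and lists were chosen with earlier results of these data known. The main fit was tested on simulated data without batch differences, so that test does not show how it behaves with the batch differences seen here. Python 3.11.15, numpy 2.4.6, pandas 2.3.3 and scipy 1.17.1 were used for the rest. The batches differ at once in season, sequencer and the number of fruits, which cannot be told apart.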

Additional observations from a re-analysis of the deposited data

Results flagged for a closer look

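Between 40DAF and 10DAF, 5 sequences were over 1.5-fold apart in opposite directions in the 2 batches, with over 3 reads on the higher side in each. In each batch there is a single library per age, so the difference between the batches was not tested. The 24 nt miR7130 held 0 and 44.5 TPM at 40DAF, against 22.2 and 9.93 TPM at 10DAF, and its log2 difference in the second batch exceeded that in the first by 4.17. For miR7129, also 24 nt, the second batch exceeded the first by 3.73. The gap was 2.99 for miR166a/b/c/d/f/h and 2.71 for miR395a/d/e/f. For miR164b it was 1.78, and both of its counting intervals included a ratio of 1, at 0.182 to 1.60 in the first batch and 0.742 to 7.21 in the second. The opposition depended on the scaling. Scaled on other families, the second-batch differences were 0.07 for miR7130, 0.03 for miR7129, 0.34 for miR166a/b/c/d/f/h, -0.38 for miR395a/d/e/f and -0.67 for miR164b. Scaled on clean reads they were -0.03, -0.09, 0.22, -0.48 and -0.75 in the same order, so none of the 5 was then over 1.5-fold higher at 40DAF in the second batch.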

How the results depend on the processing

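Each of the 16 sequences past the unadjusted threshold kept the sign of its fitted difference under every alternative run. Of these 16, 11 still passed that threshold when scaled on other families, 12 with median-ratio scaling and 8 when scaled on clean reads. The 5 sequences past the adjusted threshold became 8 (2 higher, 6 lower, among them miR167c and miR319c/d) when scaled on the families other than miR159, miR319 and miR396, 3 (1 higher, 2 lower) when scaled on clean reads, 3 (2 higher, 1 lower) with voom on the reads recovered from the TPM, an alternative chosen after seeing the data, and 0 with only the 40DAF and 10DAF libraries (limma), where 9 passed the unadjusted threshold. The batch as a replicate block gave 6 adjusted and 16 unadjusted calls and, beyond the calls given in the report, changed no other call of a named sequence. Leaving out 1 library at a time gave 0 to 6 adjusted and 12 to 16 unadjusted calls of sequences, and 1 to 3 adjusted and 2 to 8 unadjusted calls of families. It was 0 adjusted calls without either library of 20DAF, 30DAF or 40DAF. The adjusted family calls were 0 when scaled on clean reads and 1 with only the 40DAF and 10DAF libraries. The unadjusted family calls were 9 when scaled on other families, and 2 with only those libraries and 2 with voom. The 12 sequences over 1.5-fold lower in both batches became 6 with a pseudocount of 20, 26 scaled on other families and 23 scaled on clean reads. The 14 in opposite directions became 7 with a pseudocount of 20, 7 scaled on other families, 7 scaled on clean reads and 9 with median-ratio scaling. The cause was not tested. A pseudocount of 1, a filter at a mean of 10 TPM and a fit without the mean-variance trend kept all counts within 1.5-fold. The planned count tests with edgeR and DESeq2 were not run, because the table was deposited as TPM and 44 to 52 low values per library were left to check the recovered reads on. The same limit holds for voom, the floors and the counting intervals, which use those reads. At 40DAF, sequences under 12.9 TPM in the first batch and 22.2 TPM in the second were not detectable at this depth.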
